A study of Mus musculus with 27 samples.

Results

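To follow the protein-folding response of injured skeletal muscle, 10 heat shock and chaperone genes were examined in mouse muscle after cardiotoxin (CTX), a snake venom peptide that destroys fibres, which the muscle then regenerates. The genes were Hspa1a, Hspa1b, Dnajb1, Hsph1, Bag3, Hsp90aa1, Hspa5, Hspb1, Hspb7 and Cryab, chosen by name, and each stood on 1 row among the 55852 entries of the table of injured muscle and the 55677 entries of the table that holds the controls. All mice were male. The 12 injured WT libraries (C57BL/6J per the study, CTX, n = 3 on each of days 1, 4, 7 and 14, D1 to D14) were set beside 12 injured libraries labelled Gsdme KO from the same days (n = 3 per day), and 3 WT libraries came from control muscle without CTX. Gsdme encodes gasdermin E, a pore-forming protein that is activated when a caspase cuts it, and per the study the KO was in the whole animal and WT littermates came from crosses of heterozygotes. The sample titles say KO whereas the genotype field says knockdown. The study used gastrocnemius and, as control, the uninjured muscle of the other leg at 24 h, whereas the deposited description has thigh muscle and an unloaded control. Ages were not given. Values were TPM, a transcript abundance per length and per library, so that the depth behind each value is unknown.

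Heat shock proteins bind unfolded or damaged proteins and keep them from aggregating. In the cytosol, the inducible Hsp70 proteins (Hspa1a, Hspa1b) refold clients with an Hsp40 partner (Dnajb1) and nucleotide exchange factors (Hsph1, Bag3), Hsp90 (Hsp90aa1) acts on clients that are nearly folded, and many of these genes are switched on by heat shock factor 1. Small heat shock proteins (Hspb1, Hspb7, Cryab) hold unfolded proteins without using ATP and are abundant in striated muscle, where they sit on actin, filamin and desmin of the contractile apparatus. Hspa5, also called BiP, is the Hsp70 of the endoplasmic reticulum (ER), and is induced by the unfolded protein response rather than by heat shock factor 1.

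To see the regulatory sequence behind these groups, the 250 bases before the RefSeq transcript start (GRCm38.p6) were read for the 8 members with an entry (10 starts), with all 32851 starts of the table as background. The heat shock element core GAANNTTC, which reads the same on both strands, was present at 3 of the 8 genes, Hspa1a, Hspa1b and Hspb1, and at 7.73% of all 27025 genes. The same units in the other order, TTCNNGAA, were not counted, and the Hsph1 stretch, which is not printed, holds a match to that order. The ER stress element, a CCAAT followed after a fixed gap by CCACG and searched on both strands, was present at 1 of the 8, Hspa5, and at 0.13% of all genes. Hspa1a, Hspa1b and Hspb1 are printed as the promoters with the core GAANNTTC, Hspa5 as the promoter with the ER stress element, and Bag3 as the member that did not rise after injury, 5′ to 3′ on the strand of the gene and with the matches in capitals.
Hspa1a, chr17:34972157-34972406, minus strand: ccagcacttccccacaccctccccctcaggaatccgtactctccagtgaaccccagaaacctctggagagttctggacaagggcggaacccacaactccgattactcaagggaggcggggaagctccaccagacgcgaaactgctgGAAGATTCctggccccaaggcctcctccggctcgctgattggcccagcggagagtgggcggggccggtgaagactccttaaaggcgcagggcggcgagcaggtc
Hspa1b, chr17:34959239-34959488, minus strand: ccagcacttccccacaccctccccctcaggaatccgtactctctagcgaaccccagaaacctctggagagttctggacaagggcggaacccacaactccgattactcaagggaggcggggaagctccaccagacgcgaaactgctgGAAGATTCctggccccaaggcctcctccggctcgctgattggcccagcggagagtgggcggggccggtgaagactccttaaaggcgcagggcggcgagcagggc
Hspb1, chr5:135887669-135887918, plus strand: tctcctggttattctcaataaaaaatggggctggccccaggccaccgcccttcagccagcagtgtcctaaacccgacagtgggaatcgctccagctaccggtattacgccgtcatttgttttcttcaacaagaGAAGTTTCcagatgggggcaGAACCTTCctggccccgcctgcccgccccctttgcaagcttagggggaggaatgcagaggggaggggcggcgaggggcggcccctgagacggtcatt
Hspa5, chr2:34771840-34772089, plus strand: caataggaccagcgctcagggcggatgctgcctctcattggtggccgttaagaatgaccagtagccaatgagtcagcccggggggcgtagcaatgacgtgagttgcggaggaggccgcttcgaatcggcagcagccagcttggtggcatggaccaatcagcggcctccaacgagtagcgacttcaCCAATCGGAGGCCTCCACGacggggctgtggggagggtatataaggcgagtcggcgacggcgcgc
Bag3, chr7:128523333-128523582, plus strand: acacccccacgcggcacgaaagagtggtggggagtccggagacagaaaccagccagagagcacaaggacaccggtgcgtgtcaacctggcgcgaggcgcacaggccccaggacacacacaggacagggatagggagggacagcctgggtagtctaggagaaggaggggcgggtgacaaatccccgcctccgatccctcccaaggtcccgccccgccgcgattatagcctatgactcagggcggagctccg
The Hspa1a and Hspa1b stretches were identical at 247 of 250 bases, each with 1 core that ended 96 bases before the start. Hspb1 had 2 cores, 109 and 89 bases before the start, and the ER stress element of Hspa5 ended 46 bases before it. A match of letters is no evidence of binding, and no match in these 250 bases says nothing of sites elsewhere.

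Before the members were compared, the targeted gene and the make-up of the libraries were checked. Gsdme was from 1.46 to 4.85 TPM in injured WT libraries and from 0.95 to 2.17 TPM in KO libraries, so that on average it was lower in KO but not absent (averaged over days, log2 difference -0.55 ± 0.09 SE, limma adjusted p = 0.0664, exact two-sided permutation within days p = 8.75e-05). At D14 the genotypes overlapped, with 1.46, 2.21 and 2.26 TPM in WT and 1.96, 1.77 and 1.27 TPM in KO (-0.16 ± 0.19 SE, limma unadjusted p = 0.421). Each library had from 11785 to 14704 genes at or above 1 TPM, and no 2 replicates shared more than 0.361% identical values. All 10 myofibre markers were above 0 in every library. In 3 libraries, the summed level of 8 leukocyte markers was low for their day, with 865 TPM in WT D1 replicate 3, 452 TPM in KO D4 replicate 2 and 477 TPM in KO D7 replicate 2, while the other injured libraries of D1, D4 and D7 were from 1186 to 5561 TPM. In each of the 3, the summed myofibre markers were the highest of the day, and where stated results are also given without these 3 libraries. The study describes a batch with injured and uninjured muscle at 24 h and another with both genotypes over time, without saying which of them the WT D1 libraries belong to. Injury and batch in the control comparison, or else genotype and batch at D1 and day and batch in the WT step from D1 to D4, cannot be told apart. The genotype average and the F test over days also use the WT D1 libraries.

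To ask how the members responded to injury, WT D1 muscle was compared with uninjured WT muscle within the table that holds both. The groups were fitted as independent, although per the study the control was the other leg, so that they may share mice. Of the 10 members, 9 rose, from 2.22-fold (Hsph1) to 5.30-fold (Hspa1b) on the log2(TPM + 1) scale, and Bag3 did not pass the test. In this comparison 55.4% of the 13041 genes tested were called higher (limma, Benjamini-Hochberg adjusted p under 0.05 over all genes), 5.64% were called lower, and the median of all genes was 0.66 on the log2 scale, against a median of 2.15 over the 10 members. In the same 9 genes every D1 library was above every control library, as in 64.2% of all genes, while in 7.03% of all genes every D1 library was below. Scaling each library by median-of-ratios turned the split of all calls from 7229 higher and 736 lower to 2771 and 2763, and 7 members were then called higher, against 21.2% of all genes, and 1 lower.

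**Figure D1:**
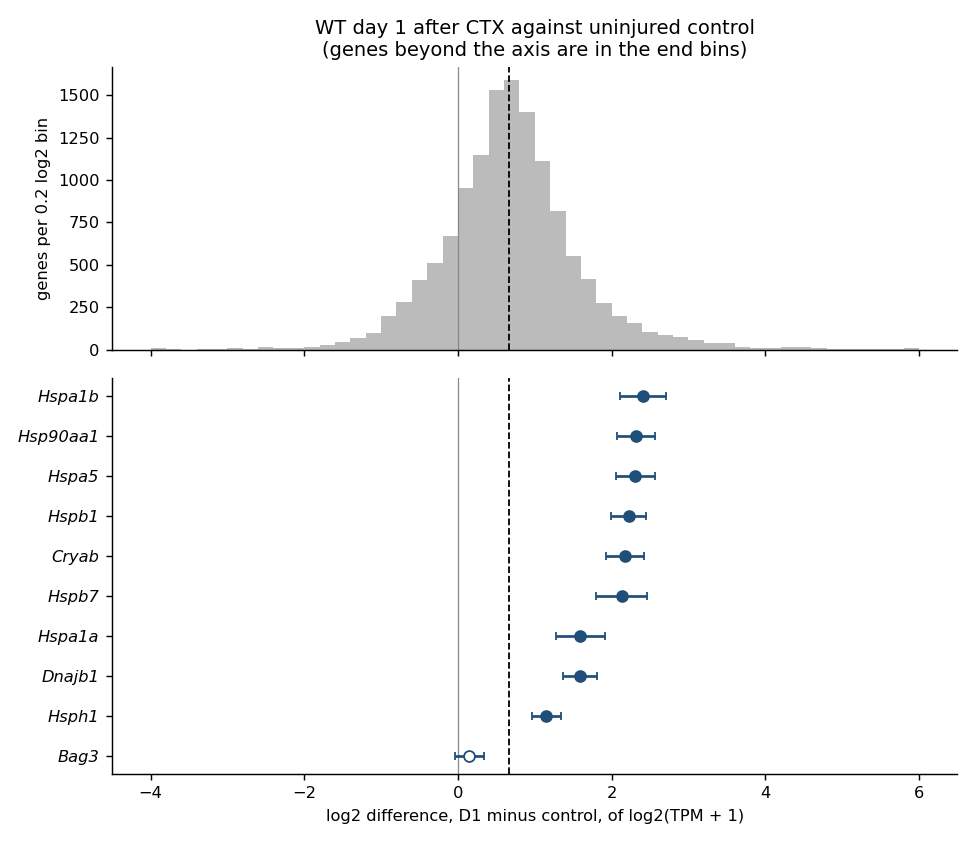
Log2 difference of log2(TPM + 1) between WT D1 and uninjured control muscle (n = 3 each). The upper panel counts all 13041 genes tested, the lower panel gives each member with its standard error, filled where called, and the dashed line is the median of all genes at 0.66. All members but Bag3 lie to the right of the dashed line, from 1.15 (Hsph1) to 2.41 (Hspa1b), and Bag3 is at 0.15.

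The small heat shock proteins were the most abundant members and rose together. Cryab (ENSMUSG00000032060, chr9:50751325-50756636), the αB-crystallin that binds desmin, was 1082, 724 and 1198 TPM in control muscle and 4904, 4606 and 3830 TPM at D1 (log2 difference 2.17 ± 0.25 SE, adjusted p = 0.00125). Hspb1 (ENSMUSG00000004951, chr5:135887919-135889563), the Hsp27 that protects actin, went from 333, 281 and 265 TPM to 1443, 1020 and 1730 TPM (2.22 ± 0.23, adjusted p = 0.00101). Hspb7 (ENSMUSG00000006221, chr4:141420779-141425311), a muscle-enriched member that binds filamin C, went from 108, 66.9 and 161 TPM to 608, 483 and 343 TPM (2.13 ± 0.33, adjusted p = 0.00225). Every D1 library was above every control library for all 3 genes. Their sum was from 0.64 to 1.04 per 100 TPM of myofibre markers in control muscle and from 3.70 to 7.81 at D1, while the marker sum itself was from 156901 to 167458 TPM in controls and from 78248 to 159738 TPM at D1. In whole muscle, fewer cells of a type and less RNA per cell cannot be told apart.

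Among the cytosolic refolding genes, the inducible Hsp70 genes were at low levels and Hspa1b had the largest log2 difference of the 10 members. Hspa1b (ENSMUSG00000090877, chr17:34956436-34959238) was 6.63, 3.80 and 3.26 TPM in control muscle and 37.1, 19.8 and 28.4 TPM at D1 (2.41 ± 0.30, adjusted p = 0.00137). Hspa1a (ENSMUSG00000091971, chr17:34969190-34972156) was 7.5, 4.88 and 5.56 TPM and then 29.8, 12.01 and 21.5 TPM (1.59 ± 0.32, adjusted p = 0.0046). These are near-identical neighbouring copies, and how reads that match both were assigned is not stated, so that the value of each alone is uncertain. Their sum was from 8.68 to 14.1 TPM in control muscle and from 31.8 to 66.9 TPM at D1, without overlap. Dnajb1 (ENSMUSG00000005483, chr8:83608193-83612653), the Hsp40 that feeds clients to Hsp70, was 4.83, 4.54 and 4.82 TPM and then 17.8, 19.5 and 12.1 TPM (1.58 ± 0.22, adjusted p = 0.00172). Hsp90aa1 (ENSMUSG00000021270, chr12:110690605-110702728), the inducible cytosolic Hsp90, was 11.1, 14.3 and 11.3 TPM and then 64.3, 88.8 and 46.9 TPM (2.31 ± 0.24, adjusted p = 0.00101). All of these D1 libraries were above the controls.

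Both nucleotide exchange factors of Hsp70 were at the low end of the response. Hsph1 (ENSMUSG00000029657, chr5:149614287-149636376), the Hsp110 that acts in disaggregation, was 35.8, 33.4 and 34.7 TPM in controls and 71.1, 67.1 and 99.6 TPM at D1 (1.15 ± 0.19, adjusted p = 0.00246). Bag3 (ENSMUSG00000030847, chr7:128523616-128546981), which links Hsp70 with small heat shock proteins in the autophagic turnover of filamin, was 74.3, 52.2 and 77.9 TPM in controls and 80.3, 70.7 and 73.0 TPM at D1. The Bag3 groups overlapped, and its log2 difference of 0.15 ± 0.19 (adjusted p = 0.506) was -0.63 (adjusted p = 0.0349) under median-of-ratios scaling and -0.42 (adjusted p = 0.107) under quantile normalization. Hsph1 (0.37, adjusted p = 0.252, and 0.56, adjusted p = 0.0876) and Hspa1a (0.88, adjusted p = 0.0964, and 0.81, adjusted p = 0.143) were not called under these respective scalings, while the 7 other members were called higher under both.

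In the ER, Hspa5 (ENSMUSG00000026864, chr2:34771970-34777547) was 76.3, 73.1 and 60.3 TPM in control muscle and 297, 517 and 274 TPM at D1. The lowest D1 library was above the highest control library, and the log2 difference was 2.31 ± 0.25 (adjusted p = 0.00109). The summed leukocyte markers moved in the same direction, from 155 to 200 TPM in controls and from 865 to 4018 TPM at D1, and their part in the result was not tested. Without WT D1 replicate 3, which had the fewest leukocyte markers, the same 9 members were called, and so they were with any other 1 library left out. The shares of all genes called were not counted in these fits.

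To follow the members through repair, neighbouring days were compared within each genotype in the table of injured muscle. The D1 mean was the highest of the 4 days for every member in both genotypes, and most calls fell in the step from D1 to D4. In WT muscle, 5 of the 10 members were called lower at D4 (Cryab, Hspb1, Hspa1b, Hspa5 and Hsph1), against 5.27% of the 15718 genes tested, and none was called higher, against 14.6%. In KO muscle, 7 were called lower, the same 5 with Hsp90aa1 and Hspb7, against 12.2% of all genes, and none higher, against 7.18%. Median-of-ratios scaling turned the split of all WT calls from 2292 higher and 828 lower to 1821 and 2094, with 6 members lower, and left 7 lower in KO. Every D4 library was below every D1 library for 4 members in WT, against 7.39% of all genes, and for 9 in KO, against 19.8%, and the reverse held for no member, against 22.1% and 10.9%.

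**Figure D2:**
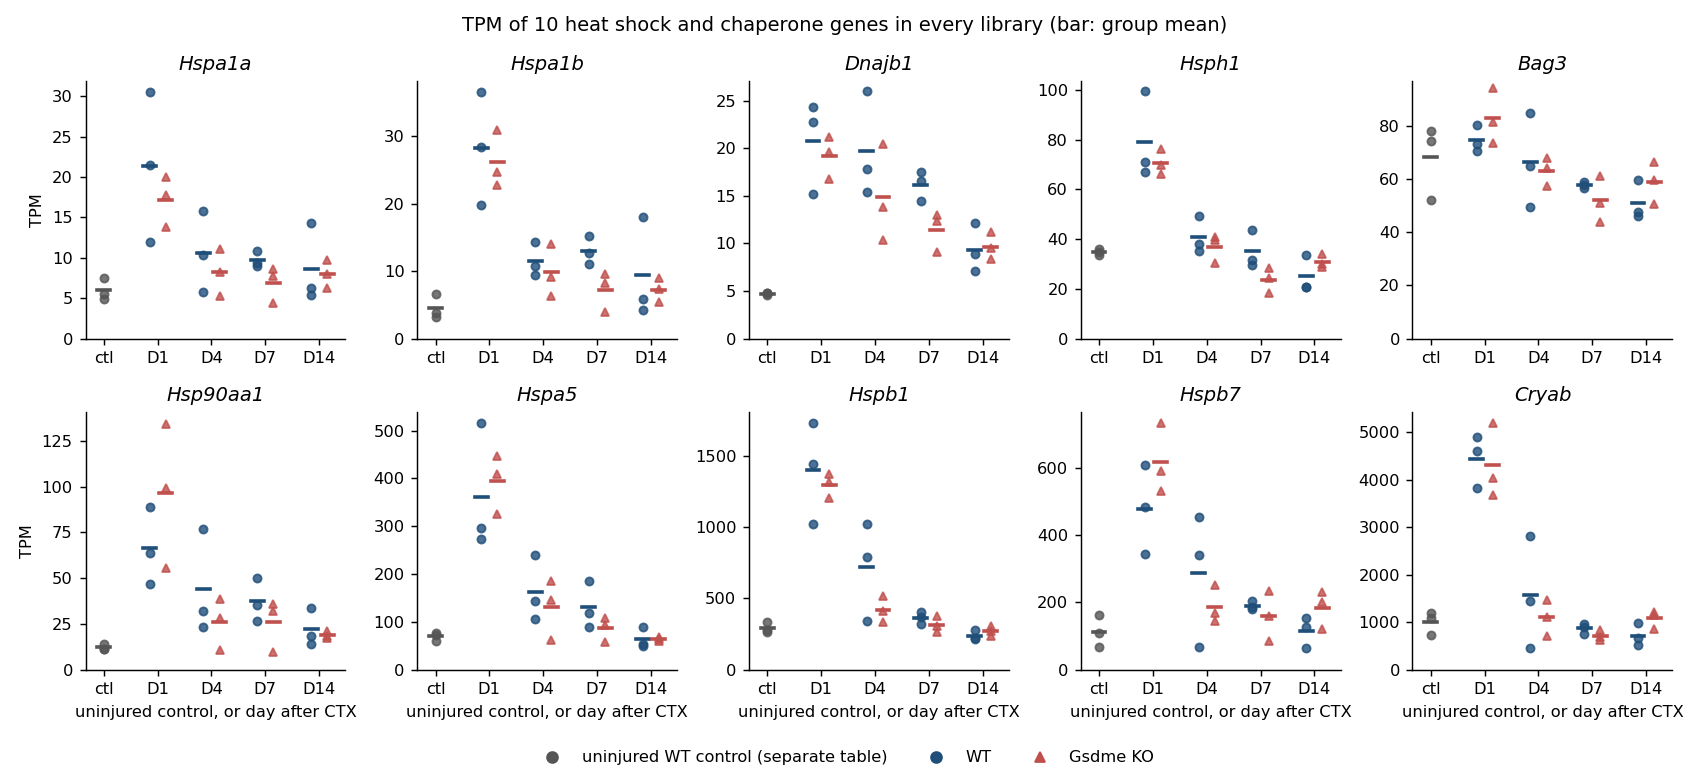
TPM of the 10 members in every library, with uninjured WT control (grey circles, from the separately quantified table), WT (blue circles) and Gsdme KO (red triangles) on D1, D4, D7 and D14. Bars are group means, n = 3. The D1 mean of each genotype is its highest in every panel, Cryab reaches 5190 TPM at D1, and Bag3 stays between 43.8 and 94.2 TPM.

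Cryab showed the largest step. It was 4898, 4599 and 3824 TPM in WT at D1 and 454, 1442 and 2822 TPM at D4 (log2 difference -1.85 ± 0.43 SE, adjusted p = 0.00478), and 4031, 5190 and 3689 TPM in KO at D1 and 1122, 1474 and 721 TPM at D4 (-2.0 ± 0.43, adjusted p = 0.00408). In both genotypes every D4 library was below every D1 library. Hspb1 was 1442, 1019 and 1728 TPM in WT at D1 and 341, 791 and 1020 TPM at D4 (-1.07 ± 0.29, adjusted p = 0.013), with 1 D4 library just above the lowest D1 library. In KO it was 1200, 1318 and 1371 TPM and then 514, 331 and 411 TPM, without overlap (-1.65 ± 0.29, adjusted p = 0.00108). Hspb7 was 607, 482 and 343 TPM in WT at D1 and 67.8, 340 and 453 TPM at D4, which overlapped (-1.08 ± 0.52, adjusted p = 0.153), whereas in KO it went from 531, 731 and 591 TPM to 251, 167 and 144 TPM (-1.74 ± 0.52, adjusted p = 0.0256).

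Of the cytosolic and ER members, Hspa1b, Hsph1 and Hspa5 were called lower in both genotypes and Hsp90aa1 in KO. Hspa1b was 36.5, 19.8 and 28.3 TPM in WT at D1 and 10.8, 9.49 and 14.3 TPM at D4 (-1.20 ± 0.39, adjusted p = 0.0343), and 30.9, 24.7 and 22.8 TPM and then 14.1, 9.19 and 6.26 TPM in KO (-1.38 ± 0.39, adjusted p = 0.0199). Hsph1 was 71.1, 67.1 and 99.5 TPM and then 37.9, 35.3 and 49.4 TPM in WT (-0.93 ± 0.21, adjusted p = 0.00435), with a like step in KO (-0.92 ± 0.21, adjusted p = 0.00674). Hspa5 was 297, 515 and 274 TPM and then 240, 143 and 106 TPM in WT (-1.17 ± 0.38, adjusted p = 0.0366), and 447, 326 and 409 TPM and then 185, 62.9 and 147 TPM in KO (-1.70 ± 0.38, adjusted p = 0.00578). None of these 3 genes had overlapping days in either genotype. Hsp90aa1 was 63.8, 88.7 and 46.8 TPM and then 76.9, 31.9 and 23.3 TPM in WT, with overlap (-0.72 ± 0.52, adjusted p = 0.362), and 99.2, 55.6 and 134 TPM and then 38.7, 10.99 and 28.0 TPM in KO (-1.93 ± 0.52, adjusted p = 0.0153). Dnajb1 and Bag3 did not pass the test in either genotype, nor did Hspa1a (-0.94 in WT, adjusted p = 0.0817, and -1.02 in KO, adjusted p = 0.0595).

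The difference in count between genotypes was not a tested difference: in the F test of whether KO minus WT varied with the day, 0 members were called by limma (adjusted p from 0.527 to 0.893), against 0% of all genes. At an unadjusted p under 0.05 this F test gave 0 members, against 1203 of the 15718 genes tested. The WT count was 3 without WT D1 replicate 1, WT D1 replicate 3, WT D4 replicate 1 or WT D4 replicate 2, and the KO count was 4 without KO D1 replicate 1 or replicate 3. Without the 3 libraries with few leukocyte markers, 3 were called in WT (Cryab, Hspa5 and Hsph1) and the same 7 in KO. Cryab and Hsph1 kept their calls in both genotypes with any 1 library left out. The shares of all genes called were not counted in the fits with libraries left out.

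Within WT D4, the replicates did not move as one. Replicate 1 had the lowest level of Cryab, Hspb1, Hspb7 and Bag3 of the 3 libraries and the highest level of Hsp90aa1, Hspa5 and Dnajb1, and replicate 3 the reverse. The same replicate 1 had 40200 TPM of myofibre markers and 5561 TPM of leukocyte markers, and replicate 3 had 87912 TPM and 2713 TPM. The part of this make-up in the levels was not tested.

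After D4, fewer members passed the test. From D4 to D7, 0 of 10 members were called in WT, against 9.31% of all genes lower and 3.04% higher, and 0 in KO, where 0% of all genes were called. At an unadjusted p under 0.05 limma gave 1 member in WT (Hspb1, -0.83) and 1 in KO (Hsph1, -0.63), against 5263 and 1555 of the 15718 genes tested. The split of all WT calls was 478 higher and 1463 lower, and 928 and 918 under median-of-ratios scaling, where 6 of the 10 members turned direction (7 under quantile normalization). In WT, Hspb1 at D7 was 366, 407 and 324 TPM, against 341, 791 and 1020 TPM at D4, and was called without WT D4 replicate 1 (-1.30, adjusted p = 0.0113).

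From D7 to D14, 1 member was called lower in WT, against 30.9% of all genes, none was called higher, against 0.923%, and 0 were called in KO, against 0.477% lower and 0.0827% higher. Dnajb1 went from 17.5, 14.4 and 16.5 TPM to 8.89, 12.1 and 7.06 TPM, and every D14 library was below every D7 library, as in 58.9% of all genes, with 4.58% the other way (-0.75 ± 0.24, adjusted p = 0.0274). The median of all genes was -0.45 in this step, and under median-of-ratios scaling, where the split of calls went from 145 higher and 4855 lower to 804 and 1353, the Dnajb1 difference was -0.21 (adjusted p = 0.322) and 4 members that were below 0, Hspa1a, Hsph1, Bag3 and Cryab, were above it. The call was lost without any 1 of WT D7 replicates 1 and 3 and WT D14 replicates 1 and 3 (adjusted p from 0.0598 to 0.139). Without WT D14 replicate 2, 4 members were called, and the share of all genes called in that fit was not counted. In WT D14 replicate 2, Hspa1b was 18.04 TPM, against 5.88 and 4.20 TPM in the others, and Hsph1 was 33.6 TPM, against 20.7 TPM in each of the others. In KO, 0 members passed an unadjusted p under 0.05 by limma, against 3035 of the 15718 genes tested. The KO split of 13 higher and 75 lower among all genes became 127 and 305 under median-of-ratios scaling.

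Levels at D14 were set beside the uninjured muscle of the other table, with no test, since the tables were quantified separately. For the WT D1 libraries, which stand in both, the means of 9 members were within 1.2% of each other between the tables, whereas Dnajb1 was 1.26-fold higher in the table of injured muscle. Mean Cryab was 1001 ± 247 TPM (SD, n = 3) in controls, 722 ± 237 TPM in WT D14 and 1081 ± 196 TPM in KO D14. Mean Hspa5 was 69.9 ± 8.49, 64.7 ± 21.5 and 63.9 ± 4.18 TPM in the same order, and Hspb7 was 112 ± 47.2, 115 ± 45.9 and 184 ± 57.9 TPM. Hspa1b, at 4.56 ± 1.81 TPM in controls, was 9.37 ± 7.55 TPM in WT D14 and 7.25 ± 1.78 TPM in KO D14, and Hsp90aa1 was 12.2 ± 1.75, 22.0 ± 10.3 and 19.0 ± 1.74 TPM. In WT, the D14 means of Hspb1, Cryab, Hsph1, Bag3 and Hspa5 were below those of uninjured muscle, and those of Hspa1a, Hspa1b, Hsp90aa1, Dnajb1 and Hspb7 were above, with ratios of 1.44, 2.05, 1.80, 1.98 and 1.02 across the tables. WT D14 replicate 2 held the highest Hspa1a (14.28 TPM), Hspa1b (18.04 TPM) and Hsp90aa1 (33.63 TPM) of its group. The other WT D14 libraries had 6.27 and 5.37 TPM of Hspa1a and 5.88 and 4.20 TPM of Hspa1b, within the range of the controls.

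To ask whether loss of Gsdme changed the response, KO was compared with WT on each day. None of the 10 members was called on any day by limma. The shares of all genes called were 0.00636% at D1 and 0% at D4, D7 and D14, and at an unadjusted p under 0.05 there were 0 members at D1, 1 at D4 (Hspb1), 2 at D7 (Hspa1b and Hsph1) and 0 at D14. Of all 15718 genes tested, 845, 3568, 481 and 324 passed that threshold in the same order. Averaged over days, 0 members were called by limma, against 0.00636% of all genes, and 0 passed an unadjusted p under 0.05, against 556 of the 15718 genes tested. The averaged log2 differences were from -0.32 (Hspa1b) to 0.12 (Hspb7), with adjusted p from 0.861 to 0.985 and exact two-sided permutation p from 0.0883 (Dnajb1) to 0.946 (Cryab) over 160000 assignments within days. On single days the standard errors were from 0.17 to 0.52 on the log2 scale.

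**Figure D3:**
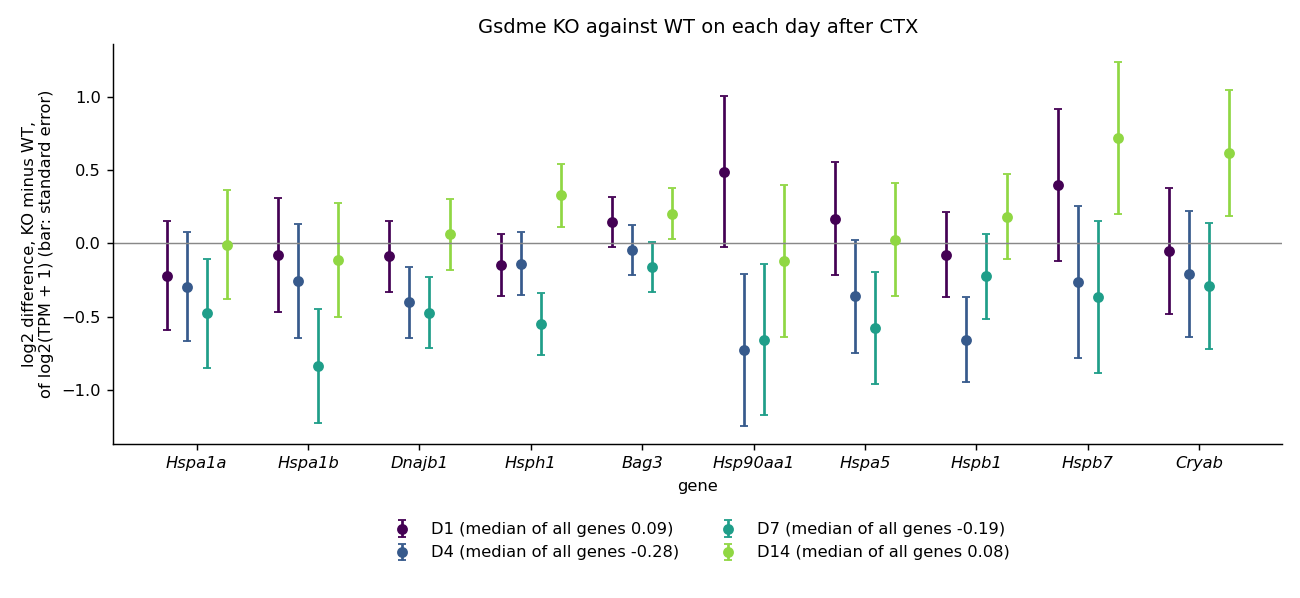
Log2 difference of log2(TPM + 1), KO minus WT, with its standard error for each member by day after CTX, with 3 libraries per genotype and day. The D7 points are below 0 for all 10 members, from -0.83 (Hspa1b) to -0.16 (Bag3), the median of all genes on that day was -0.19, and no point was called. Hspb1 and Bag3 are above 0 under median-of-ratios scaling, as is Hspb7 without the 3 libraries with few leukocyte markers.

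At D1 the genotypes overlapped for all 10 members, while 3.33% of all genes were higher and 3.38% lower in every KO library, and log2 differences were from -0.22 (Hspa1a) to 0.49 (Hsp90aa1). At D4 they were from -0.72 (Hsp90aa1) to -0.05 (Bag3), again with overlap for all, while 2.77% of all genes were higher and 11.2% lower without overlap and the median of all genes was -0.28. The direction at D4 depended on the scaling, since 6 of the 10 members were above 0 under median-of-ratios scaling (-0.39 to 0.30) and 4 under quantile normalization (-0.48 to 0.21). Hsp90aa1 was 76.9, 31.9 and 23.3 TPM in WT D4 and 38.7, 10.99 and 28.0 TPM in KO D4 (-0.72 ± 0.52, adjusted p = 0.341), and Hspb1 was -0.66 ± 0.29 (adjusted p = 0.212). KO D4 replicate 2, with few leukocyte markers, held the lowest Hsp90aa1, Hspa5, Dnajb1, Hsph1 and Hspb1 of the KO D4 libraries, and the highest Cryab and Bag3. Without the 3 libraries with few leukocyte markers, Hspb1, Hspa5 and Hsph1 turned direction at D1 and Hspa5 at D4.

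At D7, 4 members were lower in every KO library than in every WT library, as were 14.6% of all genes, and none was higher, against 1.85%. Hspa1b was 12.7, 15.3 and 11 TPM in WT and 8.22, 3.89 and 9.51 TPM in KO (-0.83 ± 0.39). Hsph1 was 43.7, 31.8 and 29.8 TPM in WT and 28.4, 18.3 and 24.5 TPM in KO (-0.55 ± 0.21). Dnajb1 was 17.5, 14.4 and 16.5 TPM in WT and 12.3, 9.06 and 12.99 TPM in KO (-0.47 ± 0.24). Hspa1a was 8.99, 10.9 and 9.34 TPM in WT and 7.76, 4.47 and 8.56 TPM in KO (-0.48 ± 0.37). Hsp90aa1 (-0.65 ± 0.52) and Hspa5 (-0.58 ± 0.38) overlapped between genotypes but had larger differences than Hsph1, Dnajb1 and Hspa1a. Bag3 (-0.16 ± 0.17) also overlapped. The median of all genes was -0.19. Under median-of-ratios scaling the differences of the 4 non-overlapping members were -0.63, -0.32, -0.25 and -0.27 in the order above. In the main fit the limma adjusted p was 0.776 for each of these 4, and with 3 against 3 the exact permutation p of 0.1 is the smallest possible. The lowest value of each came from KO D7 replicate 2, and without it the differences were -0.50, -0.38, -0.32 and -0.23 in the same order. At D7 the summed myofibre markers were from 104254 to 116329 TPM in WT and from 121183 to 183752 TPM in KO, and the leukocyte markers from 1344 to 1863 TPM in WT and from 477 to 1246 TPM in KO, and their part was not tested.

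At D14 the small heat shock proteins were higher on average in KO, within the spread. Hspb7 was 154, 64.2 and 126 TPM in WT and 232, 120 and 201 TPM in KO (0.72 ± 0.52, adjusted p = 1.00). Cryab was 984, 523 and 660 TPM in WT and 1158, 858 and 1227 TPM in KO (0.61 ± 0.43, adjusted p = 1.00). Both overlapped, as did all 10 members on this day, against 7.37% of all genes higher and 1.04% lower without overlap. The summed adipocyte markers were from 335 to 382 TPM in WT D14 and from 449 to 866 TPM in KO D14, without overlap, and their part in these values was not tested.

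To place the members in the wider folding machinery, 79 further genes in 10 lists were counted, 78 of which were tested. After injury, 53 were called higher and 2 lower, but this held only in part under other scalings, with 24 higher and 16 lower under median-of-ratios and 28 and 9 under quantile normalization. Among all 13041 genes tested, 7229 were called higher and 736 lower, against 2771 and 2763 under median-of-ratios and 2553 and 2673 under quantile normalization. The 15 ER chaperones, which like Hspa5 fold secreted and membrane proteins, were all called higher (median 2.03), and 14 of 15 under each other scaling. The largest were Sdf2l1 (log2 difference 3.47 ± 0.27, adjusted p = 0.000349), Pdia6 (2.45 ± 0.27, adjusted p = 0.00108) and Manf (2.23 ± 0.31, adjusted p = 0.00178). All 8 subunits of the chaperonin TRiC, which folds actin and tubulin, were called higher (median 1.09), and 4 and 7 under the other scalings. Of the 7 mitochondrial chaperones, 2 were called higher, Hspd1 (0.82) and Hspe1 (0.78), whereas 4 and 2 were called lower under the other scalings.

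Among the nearest relatives of the members, Hspa8, Hsp90ab1 and Hspb8 were called higher. Hspa8, the constitutive Hsp70, was 0.88 ± 0.19 higher (adjusted p = 0.00565) and Hsp90ab1, the constitutive Hsp90, was 1.03 ± 0.17 higher (adjusted p = 0.00267), but under median-of-ratios scaling they were 0.09 and 0.24 and not called, and under quantile normalization 0.60 and 0.67 and called. Hspb8, the partner of Bag3, was 1.67 ± 0.23 higher (adjusted p = 0.00172) and was called under both other scalings. Flnc, the filamin C that Hspb7 and Bag3 bind, was 2.14 ± 0.27 higher (adjusted p = 0.00137), and Synpo2, which cooperates with Bag3, was 0.93 lower (-0.93 ± 0.25, adjusted p = 0.0142). Hspb6, a small heat shock protein of muscle, was not called (-0.32 ± 0.28, adjusted p = 0.343), but was called lower under median-of-ratios scaling (-1.11, adjusted p = 0.0309). Hsf1, the heat shock transcription factor itself, was 0.58 ± 0.16 higher (adjusted p = 0.014) but -0.19 under median-of-ratios scaling and -0.07 under quantile normalization, neither called.

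From D1 to D4 the wider lists differed in count between genotypes, with 6 higher and 8 lower in WT and 2 higher and 28 lower in KO. Of all genes, 14.6% were called higher and 5.27% lower in WT, and 7.18% and 12.2% in KO. Under median-of-ratios scaling the counts were 3 and 31 in WT and 4 and 27 in KO, against 1821 and 2094 in WT and 1774 and 2360 in KO among all 15718 genes tested. In KO, 12 of the 15 ER chaperones were called lower, as under each other scaling, led by Sdf2l1 (-2.46 ± 0.40, adjusted p = 0.000619). In WT, 2 were called lower, against 7 and 6 under median-of-ratios and quantile scaling, namely Sdf2l1 (-1.66 ± 0.40, adjusted p = 0.00612) and Dnajb9 (-1.42 ± 0.22, adjusted p = 0.000256), and Serpinh1, the collagen chaperone, was higher (1.4 ± 0.43, adjusted p = 0.026). Stromal markers were from 1023 to 1750 TPM in WT D1 and from 6191 to 7005 TPM in WT D4. In KO they were from 1218 to 1516 TPM at D1 and from 1606 to 6928 TPM at D4, and their part in these results was not tested. Between genotypes, 0 of the 78 genes were called by limma on any day or on average, while at an unadjusted p under 0.05 there were 6 at D1, 11 at D4, 3 at D7, 0 at D14 and 0 on average. Of all 15718 genes tested, 845, 3568, 481, 324 and 556 passed that threshold in the same order. Whether the D1 to D4 step differed between genotypes was tested only through the F test over days, which called 0 of the 78. At an unadjusted p under 0.05 it gave 2 of them, against 1203 of the 15718 genes tested.

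**Figure D4:**
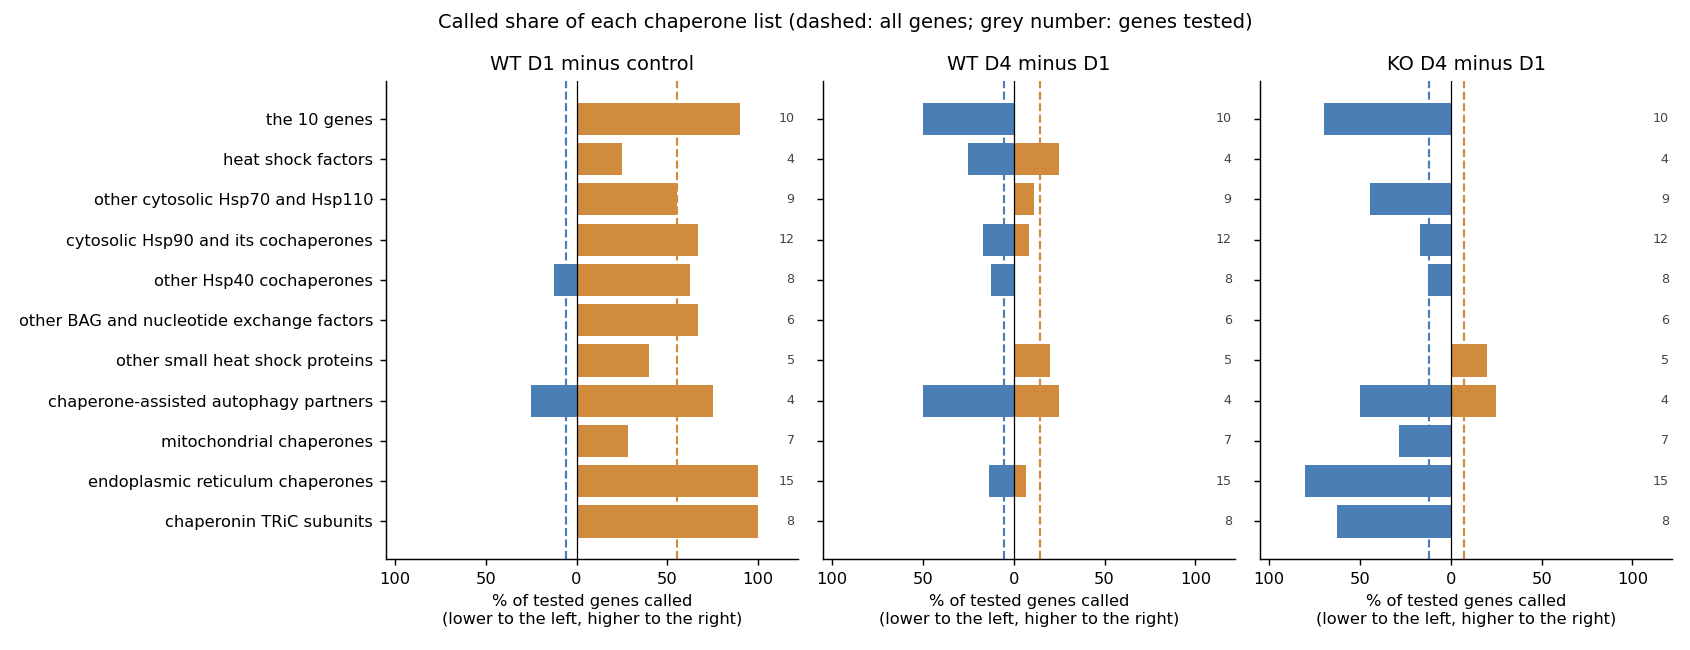
Percent of tested genes of each list called higher (orange, to the right) or lower (blue, to the left) after injury in WT and from D1 to D4 in WT and KO, with the same shares of all genes as dashed lines. After injury 9 of the 10 members, 15 of 15 ER chaperones and 8 of 8 TRiC subunits are called higher, against 55.4% of all genes.

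To describe the company each role kept, the genes with the most similar profile over the 24 injured libraries were listed by Pearson's r on log2(TPM + 1) among 9504 other genes with a mean of at least 5 TPM. The libraries share their days, and no p is given. Hspa1b was most like Thbd, Rrad, Sdf2l1, Atf3 and Srxn1 (r from 0.830 to 0.852), and among the members most like its copy Hspa1a (0.939) and Hsph1 (0.882). Hspb7 was most like Xirp1, Flnc, Lmcd1, Clu and Sel1l3 (0.851 to 0.909), and among the members most like Cryab (0.929) and Bag3 (0.925). Hspa5 was most like Sdf2l1, Spcs2, Creld2, Magt1 and Adam8 (0.974 to 0.981), and among the members most like Hsp90aa1 (0.933), whereas its r with Bag3 was 0.603. Over these libraries Bag3 spanned 2.15-fold from its lowest to its highest value, the narrowest range of the 10 members, and Hsp90aa1 spanned 13.7-fold, the widest.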

How the data were processed

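RNA-seq of 27 muscle libraries (SMARTER kit, paired-end Illumina, per the labels) was analysed from the values the authors deposited, which were TPM per gene in 2 tables quantified separately. The genome build in the submitters' processing notes is mm10; the aligner and counting tool are not given in the sources used here. TPM holds no read number, so depth, intervals and detection limits could not be given. Members and lists were chosen with earlier results of these data known, and the lists are given by counts. Genes that reached 1 TPM in 3 or more libraries were fitted on log2(TPM + 1) with limma 3.58.1 (R 4.3.3), 1 mean per group and a variance trend, within 1 table (8 injured groups in 1 fit). Adjusted p-values are Benjamini-Hochberg over all genes, folds on this scale understate the change of low genes, and genes under 0.05 are "called". Values after ± are standard errors unless SD is stated. All 10 members are named, with up to 3 called genes per wider list and comparison, 6 close relatives or regulators, Gsdme and the 5 most similar genes of Hspa1b, Hspb7 and Hspa5. Sums of 7 marker lists were checked per library; endothelial, adipocyte and immediate early sums were from 102 to 279, 187 to 866 and 122 to 439 TPM, and acinar pancreas markers from 0 to 64.3 TPM. Replicate numbers come from the titles; nothing ties replicates to separate animals beyond the statement of biological triplicates. Promoters were read from RefSeq (GRCm38.p6) and gene positions from GENCODE (GRCm38). The fit was tested on simulated data with planted differences larger than any genotype difference of the members, so that test says nothing of smaller differences. Alternatives were pseudocount, filters, 2 scalings, quality weights, a replicate block, fits of 2 groups and leaving out libraries; leaving out 3 libraries together was chosen after seeing the data.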

Additional observations from a re-analysis of the deposited data

How the results depend on the processing

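The counts of members called after injury (7 to 9) and between genotypes (0) were within 1.5 times of those reported under each alternative run. From D1 to D4 in WT (5 called), 3 were called with no filter, with library quality weights or without the 3 libraries with few leukocyte markers, 2 in a fit of only the 2 groups, and from 3 to 6 with 1 library left out. From D4 to D7 in WT (0 called), the count was 6 with quality weights, 1 without the 3 libraries, and from 0 to 1 with 1 left out. From D7 to D14 in WT (1 called), it was 0 with no filter, median-of-ratios scaling or quantile normalization, 2 with a pseudocount of 0.1, a minimum of 5 TPM or the replicate block, 3 without the 3 libraries, 4 in the fit of 2 groups, 7 with quality weights, and from 0 to 4 with 1 left out. In KO, the count from D1 to D4 (7 called) was 3 in the fit of 2 groups and from 4 to 8 with 1 left out, that from D4 to D7 (0 called) was from 0 to 1, with Hsph1 called without KO D4 replicate 2, and that from D7 to D14 (0 called) was 4 with quality weights. With quality weights, limma called 67.4% of all genes from D4 to D7 in WT. The shares were 60.5% in WT and 50% in KO from D7 to D14, and 17.3% in WT from D1 to D4. From D7 to D14 in WT, 35.7% were called with a pseudocount of 0.1, 40.4% with a minimum of 5 TPM and 32% with the replicate block. Shares of all genes were not counted in fits of 2 groups or with libraries left out. The cause of the changes in member count was not tested. No member that was called in the reported comparisons turned direction when all libraries were kept or 1 was left out. Among all 120 values of single members (10 in each of 12 comparisons), 24 turned under median-of-ratios scaling, 19 under quantile normalization, 18 with quality weights, 12 without the 3 libraries, 1 with a pseudocount of 0.1, and 0 with the other filters or the replicate block. Of the values printed, Bag3 turned after injury (-0.63 and -0.42 under the 2 scalings, from -0.029 to 0.26 with 1 left out), in KO minus WT at D4 (0.30 and 0.21, from -0.24 to 0.15) and at D7 (0.071 under median-of-ratios), and Hsp90aa1 at D4 (0.037), Hspa1a at D1 (0.27, and from -0.57 to 0.075 with 1 left out) and averaged Hspa1b (0.047) with quality weights, while averaged Hspb7 was from -0.087 to 0.25 with 1 left out. Of the values followed singly (called, not overlapping, at least 0.5 in size or named at the end of a range), 436 with a changed setting kept direction and call, 16 gained and 23 lost a call, and with 1 library left out these were 327, 9 and 25.

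The replicate numbers did not pair WT with KO libraries of a day: deviations of same-numbered libraries from their group means correlated from -0.401 to 0.395, and 4 of 12 pairs were over 0.1. Control and D1 libraries, which may come from 2 legs of the same mice, were not checked in this way. With the replicate block the member counts were 9 after injury, 5 from D1 to D4 in WT and 7 in KO, 2 from D7 to D14 in WT (Hspa5 with Dnajb1), and 0 between genotypes.

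With 3 libraries per group and TPM alone, small differences, and those of Hspa1a and Hspa1b near 5 TPM in particular, are limited by the spread and by the added 1 on the log scale.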

Other observations

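The share of all TPM held by the 10 members together was from 0.126% to 0.182% in uninjured muscle and from 0.646% to 0.755% in WT D1 muscle of the same table. In injured WT muscle it was from 0.131% to 0.460% at D4, from 0.169% to 0.177% at D7 and from 0.106% to 0.159% at D14. In KO it was from 0.641% to 0.784% at D1, from 0.157% to 0.226% at D4, from 0.112% to 0.171% at D7 and from 0.140% to 0.194% at D14. Cryab alone made up from 57.5% to 65.7% of the members' sum in uninjured muscle and from 59.3% to 66.7% at D1, so that it held a like part of a larger sum. In WT D4 it was from 34.6% to 61.3%.

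The balance of the Hsp70 pair differed between the groups of the injury comparison. Hspa1a was from 1.13 to 1.71 times Hspa1b in uninjured libraries and from 0.606 to 0.804 times at D1, without overlap. In the table of injured muscle the ratio was from 0.607 to 0.720 in KO D1 and from 1.08 to 1.14 in KO D14, whereas WT D14, from 0.792 to 1.28, overlapped with WT D1, from 0.606 to 0.838. How reads that match both copies were assigned is not stated, and the ratios were not tested.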
